A study of Mus musculus with 6 samples.

Results

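Rab GTPases are small membrane-bound switches that mark the compartments of the secretory and endocytic routes. A guanine nucleotide exchange factor (GEF) loads a Rab with GTP, the loaded Rab recruits effectors that move, tether or fuse vesicles, and a GTPase-activating protein (GAP) returns it to the inactive state. In macrophages, Rabs are known for steering phagosome maturation, lysosome fusion, surface delivery of receptors and secretion.

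The members were taken by name, as every protein-coding gene whose symbol is Rab followed by a number and at most a letter and a further digit. This gave 59 genes of the 54532 in the deposited table. The rule itself uses no measured value, but the family was chosen with earlier results of these data known. Of these, 32 had a mean of at least 1 FPKM (fragments per kilobase of gene length, scaled to library size) over the 6 libraries and were tested together with all other such genes, 9794 in total. They were placed in 6 groups by the compartment each is best known for.

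The study sequenced poly-A RNA from cultured peritoneal macrophages of wild-type (WT) male C57BL/6J mice, 6 to 8 weeks old by the study's methods. Control cells were untreated. Model cells received 500 ng/mL LPS for 5.5 h, which primes the NLRP3 inflammasome, and then 2 mM ATP for 0.5 h, which activates it. MUS cells were given LPS and ATP as Model cells were, and in addition 50 µM muscone, a macrocyclic ketone, from 5 h after LPS onwards. Each group had 2 libraries, of which replicate 1 carries batch 1 and replicate 2 carries batch 2 in the labels. No group received muscone alone or LPS alone. The cells were drawn by lavage after thioglycolate injection, so they stand for elicited rather than resident macrophages. Nothing in the labels says that the replicates came from separate mice or cultures, so p-values measure only the spread between these libraries, which may be technical. In a bulk sample, fewer cells of a type and less RNA per cell cannot be told apart.

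The libraries held between 15526321 and 17135442 fragments on genes, recovered from the table as whole numbers. Genes with any fragment numbered 24906 in Model replicate 1, against 17406 to 19200 in the other libraries. The reason for this was not tested. All 7 macrophage markers checked were tested and summed to between 8426 and 13340 FPKM in a library. None of the markers of T cells, B cells, neutrophils, mast cells, eosinophils, mesothelial cells or dendritic cells reached a mean of 1 FPKM, and no such list summed to more than 1.78 FPKM in any library, with Ly6g, Elane, Epx, Prg2 and Ear6 at 0 in all 6. The per-million scale behind the FPKM was 1.45 and 1.34 times the fragment total in the Control libraries but 0.909 to 0.998 times in the others. FPKM of Control are therefore lower against those of Model and MUS than the fragments alone would make them. Each direction below was also computed on fragment totals and under other scalings.

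The Rab transcripts were spread very unevenly over the family. Of the 59 members, 8 had a mean of at least 50 FPKM, 25 of at least 10 and 27 of less than 1. The 5 most abundant, Rab7, Rab32, Rab8b, Rab1a and Rab10, held between 48.3% and 58.1% of the summed Rab FPKM of a library, whereas all 27 untested members together held at most 0.722%. The family as a whole took between 0.503% and 0.575% of the fragments on genes, and the highest and lowest shares belonged to Model replicate 1 and MUS replicate 2.

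**Figure D1:**
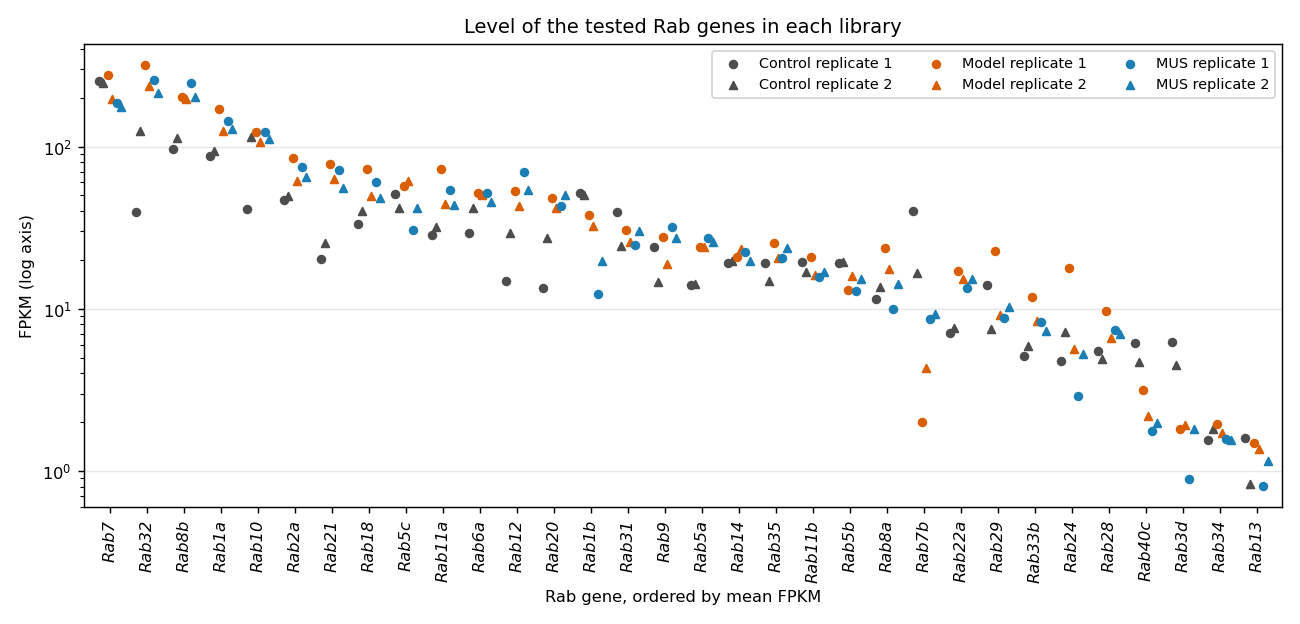
FPKM of the 32 tested Rab genes in each of the 6 libraries, on a log axis, ordered by mean FPKM (circles replicate 1, triangles replicate 2). Rab7b is the gene whose Control libraries, at 40.0 and 16.6 FPKM, lie farthest above those of Model, at 2.01 and 4.34 FPKM.

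The most abundant member depended on the group. Rab7, which drives fusion of late endosomes and autophagosomes with lysosomes, had 254.5 and 247.8 FPKM in Control, 275.0 and 195.6 in Model, with 186.0 and 175.3 in MUS. It was the highest Rab in both Control libraries. Rab32, a Rab of lysosome-related organelles that also associates with mitochondria, had 39.3 and 125.1 FPKM in Control, 317.7 and 234.6 in Model, with 257.6 and 212.4 in MUS. It was the highest Rab in all 4 treated libraries, while its Control libraries differed more from each other than its Model libraries did. In MUS, Rab8b ranked second with 246.9 and 201.3 FPKM, ahead of Rab7.

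**Figure D2:**
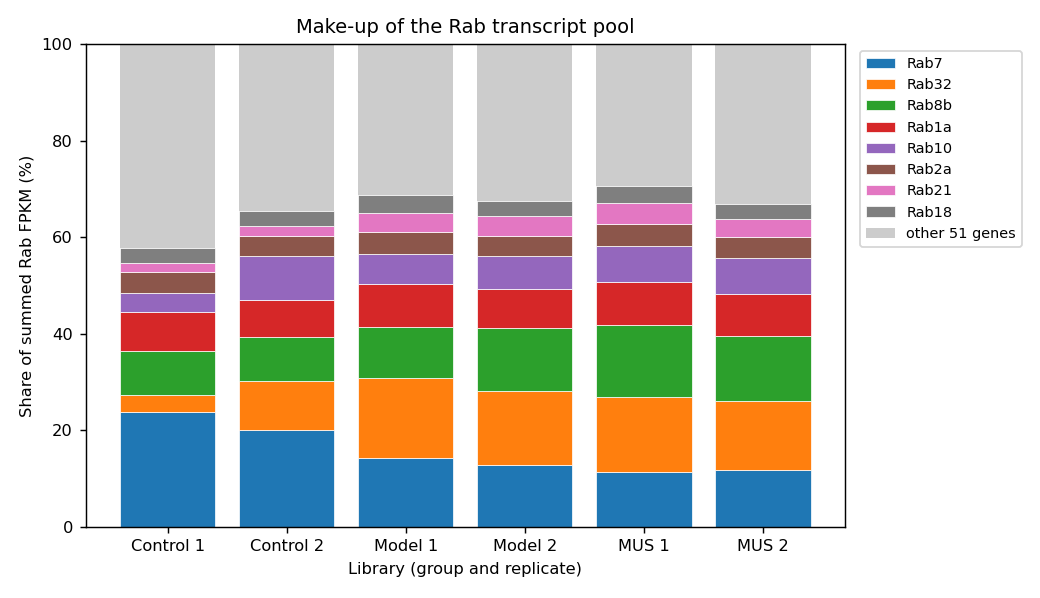
Share of the summed Rab FPKM of each library taken by the 8 most abundant members and by the other 51 genes together, in percent. The 2 Control libraries have Rab7 as their largest named part, the 4 treated libraries have Rab32, and the bars do not depend on how a library was scaled.

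LPS + ATP was compared with no treatment first. Rab21 and Rab22a, both of early endosomes, rose in Model vs. Control, and Rab7b, of late endosomes, and Rab3d, of secretory granules, fell. These 4 of 32 members (12.5%) were differentially expressed genes (DEGs), defined as an adjusted p of at most 0.05 with an absolute log2 fold change over 1 (limma, Benjamini-Hochberg adjusted over all genes tested). The background was of the same order, as 15.1% of all genes tested were DEGs, 9.5% higher and 5.56% lower in Model. Most other members were higher without passing the test, so that 25 of 32 had a positive log2 fold change and the median was 0.53, beside 0.041 over all genes tested. On fragment totals the members' median was 0.012, with 16 higher and 16 lower, and that over all genes was -0.42. The DEGs then were 1 higher and 4 lower member (15.6%) in place of 2 and 2, beside 22.7% of all genes tested at that scale, 6.43% higher and 16.2% lower.

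The count of 4 moved when a library was left out, and the share of all genes called moved in the same direction each time. Such a fit leaves a single library in a group, so only fold changes are given here. The members' median was 0.32 without Model replicate 1 and 0.75 without Model replicate 2, beside 0.024 and 0.044 over all genes. Without Control replicates 1 and 2 the members' median was 0.55 and 0.54. Leaving out a MUS library left these fold changes as they were. The libraries of Model lay wholly above those of Control for 18 members and wholly below for 5 in FPKM, beside 32.6% and 28.5% of all genes tested. On fragment totals Rab1a, Rab2a, Rab18, Rab5c, Rab6a, Rab35, Rab8a and Rab28 of the 18 overlapped, and Rab14 lay wholly below. Rab7, Rab31, Rab11b and Rab34 then also lay wholly below, and the 5 still did. Within batch 1 the members' median difference between Model and Control was 0.72, with 25 members higher, and within batch 2 it was 0.32, with 22 higher (log2 of FPKM + 1).

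**Figure D3:**
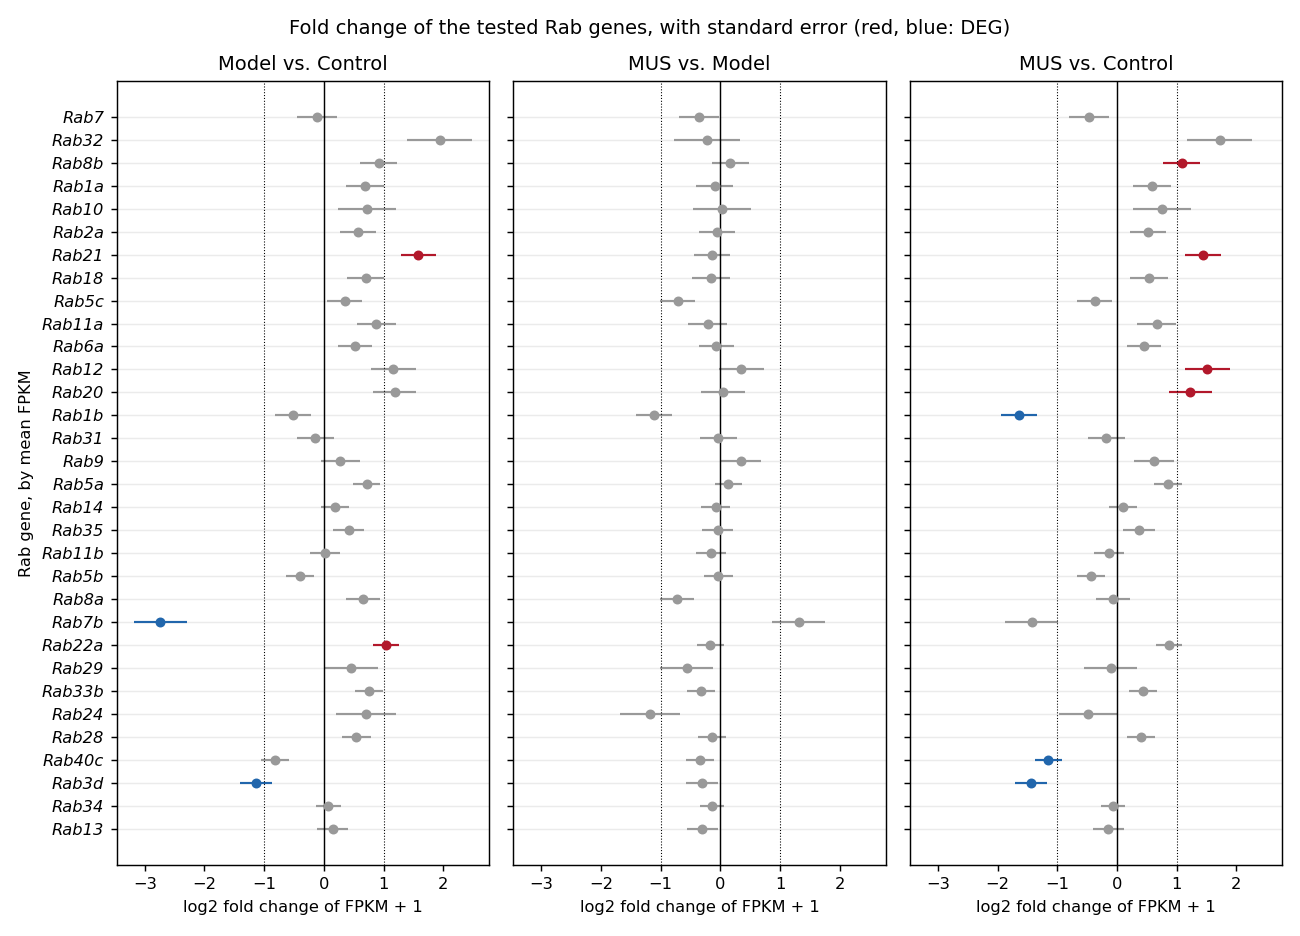
Log2 fold change of FPKM + 1 for the 32 tested Rab genes in the 3 comparisons, with the standard error from limma (n = 2 libraries a group). Red and blue points are DEGs with higher and lower values in the group named first, dotted lines mark a log2 fold change of 1 and -1. On deposited FPKM 25 of 32 points lie above 0 in Model vs. Control, against 16 of 32 on fragment totals, and MUS vs. Model has no DEG.

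Among late endosome and lysosome Rabs, Rab7b showed the largest change of any member. Rab7b (ENSMUSG00000052688, GRCm38 chromosome 1, 131688695 to 131715439, plus strand) lies on late endosomes and the trans-Golgi network and is known to dampen TLR4 signalling by promoting degradation of the receptor. It had 40.0 and 16.6 FPKM in Control, 2.01 and 4.34 in Model, with 8.70 and 9.25 in MUS. Control was highest, Model lowest and MUS between them, and no libraries of different groups overlapped. From Control to Model it fell from 28.3 ± 16.6 to 3.17 ± 1.65 FPKM (SD, n = 2), a log2 fold change of -2.74 (SE 0.44, limma adjusted p = 0.00944). The fall stood in 15 of 17 alternative settings and ended when Model replicate 1 was left out (limma adjusted p = 0.0613) or when low genes were not filtered out (limma adjusted p = 0.0857). Model replicate 1, its lowest library, held 131 fragments of Rab7b.

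The remaining Rabs of these compartments did not pass the test in Model vs. Control. Rab32 had a log2 fold change of 1.94 (SE 0.55, limma adjusted p = 0.0520), and it became a DEG with a minimum mean of 5 FPKM, with no mean-variance trend, and without Control replicate 2, its higher Control library. Rab7 had one of -0.11 (SE 0.33, limma adjusted p = 0.829), which moved with the scale to -0.66 on fragment totals (limma adjusted p = 0.130) and -1.14 after quantile normalization, where it was a DEG (limma adjusted p = 0.0313). In fragments per 1000000 on genes, Rab7 had 965 and 864 in Control, above the 652 and 509 in Model. Rab9, which returns mannose 6-phosphate receptors to the Golgi, ranged from 14.6 to 31.8 FPKM over the 6 libraries, and Rab29 from 7.53 to 22.6 FPKM with its highest value in Model replicate 1.

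Early endosome Rabs held both members that rose. Rab21 (ENSMUSG00000020132, GRCm38 chromosome 10, 115287084 to 115315594, minus strand), which carries integrins through early endosomes, had 20.1 and 25.2 FPKM in Control, 77.5 and 62.7 in Model, with 71.9 and 55.3 in MUS. All 4 treated libraries lay above both Control libraries, and the Model and MUS libraries overlapped. Model exceeded Control by a log2 fold change of 1.59 (SE 0.30, limma adjusted p = 0.0150). The call stood in 12 of 17 alternative settings, including fragment totals, and ended without Control replicate 1, without Model replicate 1, without MUS replicate 2, without the filter, and with mitochondrial and the 20 highest genes left out of the scaling.

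Rab22a (ENSMUSG00000027519, GRCm38 chromosome 2, 173659760 to 173707343, plus strand), which moves cargo from early to recycling endosomes, had 7.07 and 7.63 FPKM in Control, 17.1 and 15.3 in Model, with 13.4 and 15.3 in MUS. Both Control libraries were below all others, and Model exceeded Control by 1.04 on the log2 scale (SE 0.22, limma adjusted p = 0.0234). This is close to the threshold of 1, and the call stood in 6 of 17 alternative settings only. It was lost on fragment totals and under each of the other scalings tried, where Rab22a was still higher in Model but by less.

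Rab20, which acts in phagosome maturation, had 13.5 and 27.1 FPKM in Control, 48.2 and 41.8 in Model, with 42.9 and 49.98 in MUS. Both Control libraries again lay lowest, with a log2 fold change of 1.18 in Model vs. Control that missed the threshold (SE 0.36, limma adjusted p = 0.0670). Rab5a, the organiser of early endosome fusion, had 14.1 and 14.3 FPKM in Control, 23.9 and 24.0 in Model, with 27.1 and 25.7 in MUS, and did not pass either (log2 fold change 0.72, SE 0.23, limma adjusted p = 0.0775). Of its paralogues, Rab5c had 51.3 and 41.7 FPKM in Control, 56.9 and 61.4 in Model, with 30.5 and 41.6 in MUS. Rab5b lay between 12.9 and 19.4 FPKM and Rab31, of the route from Golgi to endosome, between 24.5 and 39.3 FPKM over all libraries.

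The start regions of Rab20 and Rab21 are shown because these are DEGs with higher values in treated cells, Rab21 in both comparisons with Control and Rab20 in MUS vs. Control, whose RefSeq promoter held the same motif. Each window covers 250 bases before to 50 bases after the annotated start (GRCm38.p6), written 5′ to 3′ on the gene's strand, with capitals on CACGTG, the E-box read by basic helix-loop-helix factors. The Rab20 window is chr8:11478591-11478890 on the minus strand and its motif starts at position -46 relative to the start, and the Rab21 window is chr10:115315542-115315841 on the minus strand with the motif at -30.
Rab20: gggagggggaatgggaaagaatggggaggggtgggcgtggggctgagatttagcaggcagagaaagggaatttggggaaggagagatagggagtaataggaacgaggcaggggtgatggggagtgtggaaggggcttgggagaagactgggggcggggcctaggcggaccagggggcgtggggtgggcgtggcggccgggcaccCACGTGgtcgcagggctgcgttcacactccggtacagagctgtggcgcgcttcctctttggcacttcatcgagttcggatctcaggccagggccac
Rab21: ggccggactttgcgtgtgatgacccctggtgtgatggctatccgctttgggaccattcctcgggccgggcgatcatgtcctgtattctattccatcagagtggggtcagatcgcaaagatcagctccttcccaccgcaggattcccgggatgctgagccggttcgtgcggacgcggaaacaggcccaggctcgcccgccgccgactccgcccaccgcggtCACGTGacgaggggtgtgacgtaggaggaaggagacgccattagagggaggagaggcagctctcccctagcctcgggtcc
CACGTG, which reads the same on both strands, was found in promoters of 6 of the 48 members with an entry in the table, namely Rab20, Rab21, Rab23, Rab24, Rab27a and Rab5a. Counted by promoter, 6 of 60 Rab promoters (10%) held it, beside 7.15% of all 32851 promoters of that length. The NF-κB motif was searched on both strands as well and was found for Rab11a, Rab15 and Rab28, in 3 of 60 Rab promoters (5%) beside 8.46% of all. Such a match is a string of letters and was not tested for binding.

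Recycling and surface delivery Rabs included no DEG in Model vs. Control, although the log2 fold change of all 9 tested members was above 0, between 0.022 and 1.17, on deposited FPKM. On fragment totals 5 of the 9 were above 0 and 4 below, between -0.50 and 0.64. Rab8b, which carries cargo to the cell surface, had 97.1 and 112.5 FPKM in Control, 201.3 and 196.6 in Model, with 246.9 and 201.3 in MUS. Control was lowest and the log2 fold change was 0.92 (SE 0.31, limma adjusted p = 0.0862), with 5.37% of its 50-base stretches also found in transcripts of other genes. Rab12, known for sending the transferrin receptor to lysosomes, had 14.8 and 29.2 FPKM in Control, 53.3 and 43.1 in Model, with 69.8 and 53.7 in MUS.

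Rab10, which delivers TLR4 to the surface of LPS-stimulated macrophages, had 40.9 and 114.0 FPKM in Control, 122.3 and 106.1 in Model, with 122.9 and 110.5 in MUS. Here Control replicate 1 alone was low, so the groups overlapped, and in fragments per 1000000 Control replicate 2 was the highest library. The antisense gene Rab10os overlaps Rab10 and had 2.11 to 3.37 FPKM, and the kit did not mark strand. Rab11a, of recycling endosomes, had 28.6 and 32.1 FPKM in Control, 72.3 and 44.0 in Model, with 54.2 and 43.6 in MUS, with both Control libraries lowest (Model vs. Control log2 fold change 0.88, SE 0.33, limma adjusted p = 0.112). Rab8a had 11.5 and 13.6 FPKM in Control, 23.8 and 17.5 in Model, with 10.01 and 14.3 in MUS. Model was highest in FPKM, but in fragments per 1000000 Rab8a had 78.3 and 85.1 in Control, 101 and 81.5 in Model, with 43.6 and 65.8 in MUS, so that Model overlapped Control and MUS was lowest.

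ER and Golgi Rabs had no DEG in Model vs. Control either. Rab1a, needed for transport from the ER to the Golgi, had 86.9 and 93.8 FPKM in Control, 171.1 and 123.9 in Model, with 144.5 and 128.1 in MUS. Its near-identical partner Rab1b had 51.7 and 50.1 FPKM in Control, 38.0 and 32.4 in Model, with 12.4 and 19.7 in MUS. In FPKM Rab1a was lowest in Control and Rab1b was highest there, and neither passed the test in Model vs. Control (log2 fold changes 0.68 and -0.52, limma adjusted p = 0.179 and 0.263). For Rab1a the direction depended on the scale, with 0.14 on fragment totals, where Control and Model overlapped, and -0.13 after quantile normalization. On fragment totals Rab1b was a DEG with lower values in Model, as it was under each other scaling tried. Rab2a and Rab6a, of the Golgi, and Rab18, of the ER and lipid droplets, ranged from 47.0 to 84.8, from 29.5 to 51.6, and from 33.2 to 72.9 FPKM. Their Control libraries were below the other 4 in FPKM and overlapped them in fragments per 1000000.

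Of the Rabs of regulated secretion, only Rab3d was tested. Rab3d (ENSMUSG00000019066, GRCm38 chromosome 9, 21907491 to 21918192, minus strand), a Rab of secretory granules, had 6.22 and 4.48 FPKM in Control, 1.82 and 1.91 in Model, with 0.899 and 1.82 in MUS. Both Control libraries were highest, and from Control to Model it fell by 1.13 on the log2 scale (SE 0.27, limma adjusted p = 0.0303). The call stood in 9 of 16 alternative settings, among them fragment totals, and was lost without any single library except Control replicate 2. Rab27a, which docks secretory vesicles, was not tested and had 1.21 and 0.349 FPKM in Control, 0.329 and 0.216 in Model, with 0.154 and 0.413 in MUS, from 107 fragments in Control replicate 1 to 9 in MUS replicate 1. Rab40c, a substrate adaptor of a ubiquitin ligase, had 6.12 and 4.68 FPKM in Control, 3.14 and 2.17 in Model, with 1.77 and 1.97 in MUS, and fell short of the threshold in Model vs. Control (log2 fold change -0.81, SE 0.23, limma adjusted p = 0.0553). On fragment totals Rab40c was a DEG with lower values in Model (log2 fold change -1.28, limma adjusted p = 0.0142), as it was with the replicate block added there, with voom, and with mitochondrial and the 20 highest genes left out of the scaling.

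The 27 untested members were accounted for by their ranges. Rab19, Rab43, Rab6b and Rab38 lay between 0.123 and 1.89 FPKM, and Rab23 and Rab39 between 0.0622 and 0.391. Rab39, known for phagosome acidification and IL-1β secretion, had 0.250 and 0.206 FPKM in Control, 0.215 and 0.152 in Model, with 0.290 and 0.0622 in MUS, which is 17 fragments at most. Rab3a, Rab15, Rab2b, Rab4a, Rab33a, Rab30, Rab40b, Rab36, Rab4b, Rab27b, Rab39b and Rab37 were at or under 0.452 FPKM in every library. Rab17, Rab25, Rab26, Rab44, Rab42, Rab3c and Rab3b had fragments in only 1 or 2 libraries. Rab9b had none in any, which by counting error alone allows up to 3 fragments in a library, or 0.0329 to 0.0534 FPKM. Rab43 and Rab4b share 74.5% and 58.1% of their 50-base stretches with other transcripts, so their values are uncertain.

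Muscone was then compared with LPS + ATP alone, 2 groups that differ by the added compound. No Rab was a DEG in MUS vs. Model (limma), beside 0% of all genes tested. The study itself reports DEGs for this comparison at the same thresholds, with DESeq2, which was not run here. An unadjusted p under 0.05 was found for 4 members, Rab1b, Rab8a and Rab5c with lower and Rab7b with higher values in MUS. These 4 are 12.5% of the members, beside 8.42% of all genes tested, of which 2.61% were higher and 5.81% lower. The count of 4 was smaller without Model replicate 1 or either MUS replicate, and so was the share of all genes. With the replicate block it was 3 (9.38%), beside 8.92% of all genes. The smallest adjusted p of any member was 0.400, and an exact permutation test of 2 libraries against 2 cannot go below 0.333.

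Of these 4, Rab1b had the most negative value on the log2 scale, with a log2 fold change of -1.12 (SE 0.30, limma adjusted p = 0.400). Both its MUS libraries were lower than both its Model libraries. Rab24, outside these 4, had a more negative log2 fold change of -1.18 with a wider standard error (0.50). Rab24 had 17.8 and 5.64 FPKM in Model, with 2.89 and 5.26 in MUS. Rab8a and Rab5c each had a log2 fold change of -0.72, with standard errors of 0.28 and 0.29 (limma adjusted p = 0.550 and 0.579). Rab7b had one of 1.32 (SE 0.44, limma adjusted p = 0.475), with both MUS libraries higher than both Model libraries and lower than both of Control. MUS vs. Model and Model vs. Control share the Model libraries, so the opposite signs of Rab7b in them are not independent.

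Across all 32 members MUS vs. Model had a median log2 fold change of -0.14, beside 0.012 over all genes tested, with 7 members higher and 25 lower. Without Model replicate 1 the median was 0.014, with 17 higher and 15 lower, so the balance rested on that library. It is also the library with the most genes detected. Within batch 1 the median difference was -0.29, and within batch 2 it was -0.025. The MUS libraries lay wholly above those of Model for 4 members, Rab8b, Rab12, Rab5a and Rab7b, and wholly below for 11, beside 21.2% and 21% of all genes tested. Rab7 was among the lower ones, with a log2 fold change of -0.36 (SE 0.33, limma adjusted p = 0.830), and Rab32 and Rab20 overlapped between the groups.

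**Figure D4:**
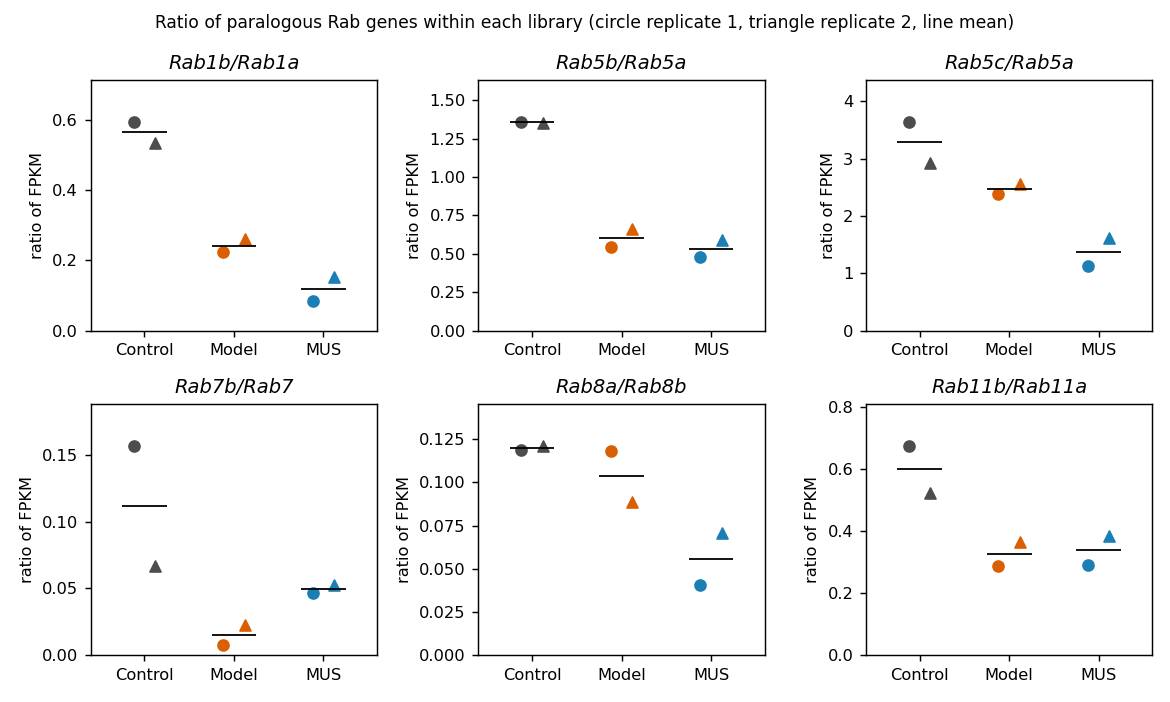
FPKM of a Rab gene divided by that of its paralogue in the same library, for 6 pairs, each axis starting at 0 (circles replicate 1, triangles replicate 2, lines the mean of 2 libraries). The ratio of Rab1b to Rab1a is 0.535 or more in Control, 0.222 and 0.262 in Model and at most 0.154 in MUS.

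Ratios between paralogues within a library do not depend on how that library was scaled, and these 6 pairs were chosen after their values were seen. The ratio of Rab1b to Rab1a was 0.595 and 0.535 in Control, 0.222 and 0.262 in Model, with 0.0856 and 0.154 in MUS. It thus stepped down from group to group without overlap. The ratio of Rab5c to Rab5a took the same order, with 3.65 and 2.92 in Control, 2.39 and 2.56 in Model, with 1.12 and 1.62 in MUS. That of Rab8a to Rab8b was 0.119 and 0.121 in Control and 0.118 and 0.0888 in Model, and it was lowest in MUS, at 0.0406 and 0.0709.

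In the pairs Rab5b to Rab5a and Rab11b to Rab11a, Control stood apart from both treated groups, which overlapped. The first ratio was 1.36 and 1.35 in Control, 0.545 and 0.663 in Model, with 0.478 and 0.590 in MUS. The second was 0.676 and 0.524 in Control, 0.289 and 0.364 in Model, with 0.292 and 0.384 in MUS. Rab7b to Rab7 was 0.157 and 0.0668 in Control, 0.00730 and 0.0222 in Model, with 0.0468 and 0.0528 in MUS, so its MUS libraries lay between the other groups. These ratios were not tested. Rab7, Rab5b and Rab11b share 11.2%, 9.80% and 9.47% of their 50-base stretches with pseudogenes or other transcripts, so part of their reads could have been counted elsewhere.

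MUS vs. Control compares treated cells carrying both the stimulus and muscone with untreated ones, and it shares libraries with both comparisons above. Here 7 of 32 members (21.9%) were DEGs, beside 20.2% of all genes tested. Rab12, Rab21, Rab20 and Rab8b rose, and Rab1b, Rab3d and Rab40c fell, where the background was 11.3% higher and 8.91% lower. On fragment totals 5 members were DEGs and all 5 were lower in MUS, so none of the 4 increases stood there. These are 15.6% of the members, beside 27.7% of all genes at that scale, 7.38% higher and 20.3% lower. The 7 became fewer without Control replicate 1 or either MUS replicate, and so did the DEGs among all genes tested. The members' median log2 fold change, 0.39 with all libraries, then lay between 0.25 and 0.36.

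Among the members that rose in MUS vs. Control, Rab12 had a log2 fold change of 1.51 (SE 0.38, limma adjusted p = 0.0291), and Rab21 one of 1.44 (SE 0.30, limma adjusted p = 0.0159). Rab20 and Rab8b had log2 fold changes of 1.23 and 1.09 with adjusted p just inside the threshold (0.0485 and 0.0447, limma). With the replicate block Rab8b lost its call (limma adjusted p = 0.0737). Of 17 alternative settings the call stood in 9 for Rab12, 8 for Rab21, 7 for Rab8b and 4 for Rab20. Rab5a and Rab22a had an adjusted p under the threshold (0.0382 and 0.0317, limma) with log2 fold changes of 0.85 and 0.88, under the size a DEG needs.

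The decreases held in more settings. Fragment totals, voom and the scaling without mitochondrial and the 20 highest genes moved all genes by -0.52 to -0.45 in this comparison. Decreases keep their calls more readily there and increases lose them, so these counts do not rank decreases above increases. Rab1b (ENSMUSG00000024870, chromosome 19, minus strand) had a log2 fold change of -1.64 (SE 0.30, limma adjusted p = 0.0107), from 50.9 ± 1.13 FPKM in Control to 16.0 ± 5.18 in MUS (SD, n = 2), and its call stood in 15 of 17 alternative settings but not without MUS replicate 1. Rab3d had one of -1.44 (SE 0.27, limma adjusted p = 0.0111) and kept its call in 13 of 16 settings, the losses being without Control replicate 1, without MUS replicate 1 and without the filter. Rab40c had one of -1.15 (SE 0.23, limma adjusted p = 0.0152) and kept its call in 12 of 16. Several genes on the opposite strand overlap Rab40c, of which Mettl26 had 0.222 to 1.89 FPKM.

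Rab7b, which fell in Model vs. Control, had a log2 fold change of -1.43 in MUS vs. Control that missed the threshold (SE 0.44, limma adjusted p = 0.0563). It was a DEG there on fragment totals and in 6 other settings of 17. Rab7 was a DEG with lower values in MUS under 4 settings, all of them other scalings, and on fragment totals it lost that call when the replicate block was added. In MUS vs. Control 18 members were higher and 14 lower, with a median log2 fold change of 0.39 beside 0.040 over all genes, and on fragment totals 12 were higher and 20 lower, with a median of -0.11 beside -0.41. In FPKM the libraries did not overlap for 16 higher and 8 lower members, beside 39.6% and 33.8% of all genes tested. On fragment totals Rab2a, Rab18, Rab6a, Rab9, Rab35, Rab33b and Rab28 of the 16 overlapped. Rab31, Rab14, Rab8a, Rab24 and Rab34 then lay wholly below Control as well, and the 8 still did. Within batch 1 the members' median difference was 0.29, and within batch 2 it was 0.26.

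**Figure D5:**
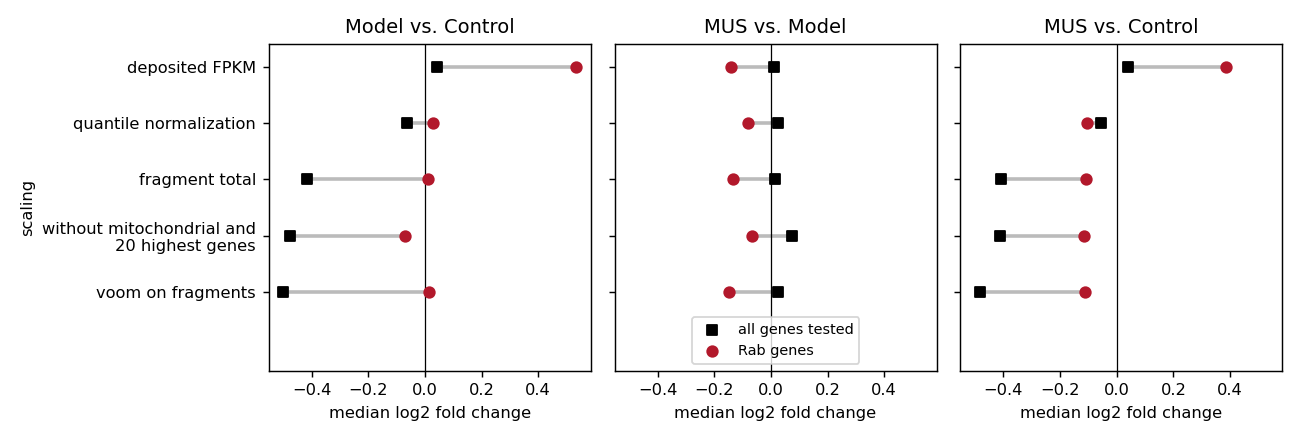
Median log2 fold change of the 32 tested Rab genes (red circles) and of all genes tested (black squares) under 5 ways of scaling the libraries, for the 3 comparisons. In Model vs. Control the Rab median is 0.53 on deposited FPKM and between -0.072 and 0.027 under the other 4, and that of all genes is lower under those 4 as well.

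The direction of the family against Control thus depended on the scale, with a median in Model vs. Control of 0.53 on deposited FPKM, 0.012 on fragment totals and -0.072 with mitochondrial and the 20 highest genes left out. The scaling moved all genes too, by -0.46 on fragment totals in Model vs. Control. Relative to the median of all genes, the members' median was higher by 0.49 on deposited FPKM, 0.43 on fragment totals, 0.51 with voom on the recovered fragments and 0.091 after quantile normalization. In MUS vs. Control the same difference was 0.35, 0.30, 0.37 and -0.049 in that order. In MUS vs. Model the members' median lay below that of all genes under all 4, by 0.11 to 0.17. The difference also moved with the filter on deposited FPKM. With a minimum mean of 5 FPKM it was 0.37 in Model vs. Control and 0.19 in MUS vs. Control. With no filter it was 0.011 and -0.0023. In MUS vs. Model the difference was -0.12 with the minimum of 5 FPKM and -0.014 with no filter. Without Model replicate 1 it was 0.00027 in MUS vs. Model.

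The GEFs, GAPs, escort proteins and effectors that work on Rabs were examined as the other genes of the pathway, 118 of them tested. In Model vs. Control 7 rose and 14 fell, together 17.8% beside the 15.1% of all genes. On fragment totals 2 were higher and 29 lower, together 25.8% beside 22.7% of all genes. That scale moved all genes by -0.46 in this comparison, so decreases keep their calls more readily there and increases lose them. The median log2 fold change was -0.19 on deposited FPKM. With a minimum mean of 5 FPKM, 61 were tested, and 8 were higher and 6 lower with a median of -0.061. Together these are 23%, beside 20.6% of all genes at that filter. Some of the 14 that fell passed the filter of 1 FPKM only through Control, as named below. The count of 21 was smaller without Control replicate 1, either Model replicate or either MUS replicate, and so was the share of all genes. The regulators' median then ran from -0.40 without Model replicate 2 to -0.067 without Model replicate 1.

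Of 32 GEFs, 4 rose and 3 fell in Model vs. Control. Rabgef1, also known as Rabex-5, the exchange factor of Rab5 and Rab21, had 10.7 and 10.2 FPKM in Control, 30.3 and 28.7 in Model, with 45.8 and 40.6 in MUS (log2 fold change 1.42, limma adjusted p = 0.0110). It was lowest in Control and highest in MUS without overlap. Rab3ip, or Rabin8, the exchange factor of Rab8, rose by 1.41 and Rin2, a GEF of Rab5, by 1.09 on the log2 scale. Rab3il1, the paralogue of Rab3ip, fell by 1.62, Dennd4c, a GEF of Rab10, by 1.53 and Madd, a GEF of Rab3 and Rab27, by 1.05. Madd had 3.16 and 2.54 FPKM in Control, 0.756 and 0.959 in Model, with 0.910 and 1.07 in MUS. It thus passed the filter through Control, and a gene passing that way can be called only as lower in Model. On fragment totals Rab3ip was still a DEG, Rabgef1 was not (log2 fold change 0.91), and nor was Rin2, whose adjusted p on deposited FPKM was 0.0412 and whose call stood in 5 of 17 alternative settings (limma).

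Of 28 GAPs, 1 rose and 6 fell. Tbc1d2, or Armus, a GAP of Rab7, had 5.19 and 2.88 FPKM in Control, 0.248 and 0.512 in Model, with 0.159 and 0.216 in MUS (log2 fold change -1.84, limma adjusted p = 0.00879). Tbc1d8, Tbc1d8b and Tbc1d22a, of the same domain family, fell with log2 fold changes of -1.30, -1.19 and -1.17, and so did Rab3gap2, a subunit of the Rab3 GAP complex, at -1.15. Tbc1d2 and Tbc1d8 lay under 1 FPKM in every Model and MUS library, so they passed the filter only through Control. Such genes can be called only as lower in Model. Tbc1d13, a GAP of Rab35, rose by 1.30, from 14.2 and 25.1 FPKM in Control to 46.3 and 49.5 in Model (limma adjusted p = 0.0437). That call stood in 4 of 17 settings and not on fragment totals, where the 5 named decreases stood. As decreases keep their calls more readily at that scale, this does not rank them above the rise.

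Of 48 effectors, 2 rose and 5 fell. Plekhm1, a Rab7 effector of lysosome fusion, had 37.7 and 29.5 FPKM in Control, 4.65 and 8.98 in Model, with 4.40 and 7.12 in MUS (log2 fold change -2.20, limma adjusted p = 0.00922). The paralogous Rab5 effectors Appl1 and Appl2 went in opposite directions, Appl1 rising by 1.32 and Appl2 falling with a log2 fold change of -1.66. Inpp5b, a lipid phosphatase that binds several Rabs, rose by 1.62, and Mical1 and Rab11fip5, effectors of Rab8 family members and of Rab11, fell by 1.58 and 1.33. Mical1 lay under 1 FPKM in every Model and MUS library and passed the filter only through Control, so it could be called only as lower. The rise of Appl1 was just inside the threshold (limma adjusted p = 0.0492), stood in 4 of 17 settings and was lost on fragment totals, where Inpp5b was still a DEG.

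None of the 10 genes for escort, prenylation, GDP dissociation inhibition and phosphoregulation of Rabs passed in Model vs. Control. No regulator was a DEG in MUS vs. Model, and 2 with higher and 3 with lower values had an unadjusted p under 0.05, which is 4.24% beside 8.42% of all genes. Of these Rabac1, also called PRA1, a Golgi protein that binds prenylated Rabs, had 54.6 and 40.8 FPKM in Control, 55.1 and 29.5 in Model, with 4.08 and 14.0 in MUS. Both MUS libraries were lowest, giving MUS vs. Model a log2 fold change of -2.24 (SE 0.54, limma adjusted p = 0.378). In MUS vs. Control 11 regulators rose and 13 fell, together 20.3% beside 20.2% of all genes. On fragment totals 3 were higher and 29 lower, together 26.7% beside 27.7%. With a minimum mean of 5 FPKM 10 were higher and 6 lower, together 26.2% beside 25.6%. This count of 24 was smaller without Control replicate 1 or either MUS replicate, and so was the share of all genes.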

How the data were processed

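The authors deposited 1 table of FPKM for 6 libraries, and all 6 columns were used. The study's methods name RSEM for the FPKM, whereas the submitters' processing notes name GRCm39, HISAT2 and featureCounts 1.5.0-p3. Positions in the table are those of GRCm38 for 98.3% of the 54409 identifiers shared with GENCODE M21, and for 57 of the 59 members (not for Rab18 and Rab1b). Multiplied by gene length, the FPKM of 100% of genes fell on whole multiples of a step fixed for each library (largest offset 9.8e-05 of a step), which gave the fragments. Shared 50-base stretches were counted in GENCODE M21 transcripts, and promoters were taken from RefSeq.

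log2(FPKM + 1) of genes with a mean of at least 1 FPKM was fitted with limma 3.58.1 in R 4.3.3 (lmFit, contrasts.fit, eBayes with trend) over all 6 libraries in 3 groups, with two-sided tests. Adding 1 understates fold changes of low genes. Tables and figures used Python 3.11.15, pandas 2.3.3, NumPy 2.4.6 and Matplotlib 3.10.9, and the fit was tested on simulated data. DESeq2 as named by the study was not run. Labels give replicate number as batch, which pairs the samples. Replicate differences of same-numbered libraries correlated across genes with r = 0.12 (Control, Model), 0.14 (Model, MUS) and -0.093 (Control, MUS), and the replicate block was an alternative. Other alternatives were the pseudocount, the filter, the groups fitted, the trend, 3 scalings, voom on fragments and leaving out each library. The block combined with fragment totals was added after seeing the data.

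Values in all libraries are given for members that were DEGs against Control, had an unadjusted p under 0.05 in MUS vs. Model, were among the 5 most abundant, or are known in macrophage phagosome, lysosome, TLR4 or secretion biology. At most 6 regulators per list were named, by size of change. Members and lists were chosen with earlier results of these data known. Intervals and limits from fragments cover counting error only.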

Additional observations from a re-analysis of the deposited data

How the results depend on the processing

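Of the log2 fold changes of the 17 named and tested members under 17 alternatives, 736 kept their direction and side of the threshold, 74 lost a call, 30 gained one and 21 changed sign, none of which was a DEG in its comparison. DEGs among members in Model vs. Control, 4 in all, were 0 with no filter on low values, 2 with only the 2 groups fitted, and 0 to 8 with a library left out. In MUS vs. Control, 7 in all, member DEGs were 0 with no filter and 4 with the replicate block and fragment totals together. In MUS vs. Control the shares of all genes were 1.51% and 29%. In Model vs. Control they were 0.861% with no filter and 8.14% with only 2 groups, against the 15.1% given above. These shares fell along with the count of 4. Leaving out a library changed the count of 7 too. With the replicate block alone the counts were 4 and 6, beside 16.2% and 21.7% of all genes. Rab8b was the only call of a named member that the block removed. The block ended no other call of a named member and added none. Regulators in Model vs. Control, 21 in all, were 1 with no filter, 9 with only 2 groups, 32 with the replicate block and fragment totals, 32 with mitochondrial and the 20 highest genes left out, 44 with voom, and 4 to 25 with a library left out. The share of all genes in Model vs. Control moved in the same direction, down to the 0.861% and 8.14% named above with no filter and only 2 groups. It was 24% with the replicate block and fragment totals, 24.5% with mitochondrial and the 20 highest genes left out, and 27.9% with voom. In MUS vs. Control, 24 in all, regulators were 3 with no filter and 39 with voom, beside 1.51% and 32.1% of all genes. This count as well changed with a library left out.

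In Model vs. Control the members' median was 0.53 on the log2 scale. It was 0.012 on fragment totals with or without the replicate block, 0.62 with a mean of at least 5 FPKM, 0.048 with no filter, 0.027 after quantile normalization, -0.072 with mitochondrial and the 20 highest genes left out, 0.013 with voom, and 0.32 to 0.75 with a library left out. In MUS vs. Model, -0.14, it was -0.047 with no filter, -0.067 with those genes left out, and -0.29 to 0.014 with a library left out. In MUS vs. Control, 0.39, it was -0.11 on fragment totals with or without the replicate block, -0.0023 with no filter, -0.10 after quantile normalization, -0.12 with those genes left out, -0.11 with voom, and 0.24 to 0.39 with a library left out. The SD of the members' median between replicates was 0.0706.

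Changes of sign in Model vs. Control were found for Rab5c, at -0.19 on fragment totals, with and without the replicate block, -0.35 after quantile normalization, -0.28 with mitochondrial and the 20 highest genes left out and -0.20 with voom. Quantile normalization also gave -0.057 for Rab10 and -0.13 for Rab1a in Model vs. Control, -0.10 for Rab1a in MUS vs. Control and 0.030 for Rab1a in MUS vs. Model. The other 12 came from leaving out a library. In MUS vs. Model the values then ran from -0.069 to 0.13 for Rab10, from -0.56 to 0.14 for Rab11a, from -0.33 to 0.13 for Rab1a, from -0.063 to 0.15 for Rab20 and from -0.33 to 0.044 for Rab21. In Model vs. Control they ran from -0.00140 to 1.45 for Rab10 and from -0.36 to 0.13 for Rab7, and in MUS vs. Control from -0.30 to 0.17 for Rab8a. The causes were not tested. Depth limits little for the 32 tested members, whose lowest library value was 28 fragments, but 13 members had at most 10 fragments in all libraries together.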
